A study of Homo sapiens with 6 samples.

Results

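The genes described here are the D cyclins CCND1, CCND2 and CCND3, their kinases CDK4 and CDK6, the INK4 inhibitors CDKN2A, CDKN2B and CDKN2C, the KIP inhibitor CDKN1B and the substrate RB1. They are 10 of the 15284 genes that the deposited tables for both knockout guides share, found by their symbols. The set was chosen by pathway and selected on earlier fold changes in both guide comparisons, above all those of CCND1, so values in those comparisons are a description and support nothing further. Of the 10 genes, 9 passed the filter on low counts and were among the 12678 genes tested. CCND2 did not pass.

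Poly(A) RNA was sequenced from HCT116, a line of human colorectal carcinoma cells, in 3 groups of 2 libraries. KO1 cells carried lentiCRISPR v2 (Cas9 with a guide RNA) with the first guide against MUC3A, KO2 cells the same vector with the other MUC3A guide, and WT cells were the controls. MUC3A encodes a membrane mucin of the intestinal epithelium. Lentivirus was given to knockout cells at a multiplicity of infection of 10, puromycin at 2 µg/mL followed for 72 h, and the protocol names no cloning step, so each knockout group is read here as a selected pool. WT cells are labelled wild type as well as negative control, and a scrambled virus appears in the protocol, so it is not known here if WT cells were infected and selected. Each group has 1 library named HCT116 and 1 named HCT, called the HCT116 set and the HCT set below. What the names mark is not stated. The labels also do not state separate cultures for the libraries of a group, so the p-values given here measure the spread between these libraries alone, which may be technical.

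D cyclins are the growth-factor-sensitive subunits of the CDK4 and CDK6 kinases. The active kinases phosphorylate the retinoblastoma protein, which then releases E2F transcription factors and lets cells enter S phase. INK4 proteins bind CDK4 and CDK6 and keep the cyclin out, while p27, the product of CDKN1B, binds cyclin-kinase complexes and restrains CDK2. In colorectal epithelium CCND1 is known as a gene induced by growth factor and Wnt signalling.

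Libraries held 13670401 and 14370065 counts in KO1, 15277378 and 17830282 in KO2, and 13638724 and 14325699 in WT (HCT116 and HCT libraries in that order), so 3 counts stood for 0.157 to 0.236 CPM (reads scaled to library size). The sets stood apart: 63.9% of all tested genes differed between them, 31.8% higher and 32.1% lower in the HCT116 set (edgeR adjusted p of 0.05). Differences between guides are therefore given within each set and from an edgeR model that holds both set and group. MUC3A itself had 28.6 and 52.9 CPM in KO1, 24.6 and 30.04 CPM in KO2, and 25.1 and 52.7 CPM in WT, in the HCT116 and HCT libraries. A small insertion or deletion can leave transcript levels as they were, so these values do not check the labels. Epithelial markers summed to 15040 and 8746 CPM in KO1, 9239 and 5271 CPM in KO2, and 8373 and 6351 CPM in WT, with the keratins KRT8, KRT18 and KRT19 holding most of it. VIL1, CDX1 and LGR5, which also mark intestinal epithelium, were at 0 to 0.201 CPM, and CDX2 was present at 14.4 to 43.9 CPM. Leukocyte markers (9 of 10 in the files) summed to 21.4 and 23.3 CPM in KO1, 15.8 and 8.90 CPM in KO2, and 11.1 and 11.7 CPM in WT, most of it CD68. Fibroblast markers (4 of 9) summed to 35.4 to 67.5 CPM over the 6 libraries, nearly all of it COL1A1. Genes of the HEK293T packaging line (6 of 8) summed to 9.72 to 30.0 CPM, nearly all of it PAX2. The part of any of these markers in the results was not tested.

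Per length, CCND1 was the most abundant of the 10 transcripts. It averaged 138 CPM per kilobase of merged GENCODE exons over the 6 libraries, with a range of 74.8 to 235. The kinase gene CDK4 followed at 34.0 CPM per kilobase (17.2 to 53.3). Below it stood CDKN2A at 19.8 CPM per kilobase (9.80 to 31.8), CDKN1B at 16.0 (14.2 to 18.04), CCND3 at 11.4 (8.23 to 15.8), RB1 at 9.11 (4.29 to 13.2) and CDK6 at 8.67 (6.73 to 11.7). CDKN2C averaged 3.64 CPM per kilobase (2.14 to 6.69) and CDKN2B 2.14 (1.68 to 3.02). CCND2 was close to absent, with 0 reads in 4 libraries, 4 reads in the HCT116 library of KO2 and 1 read in the HCT library of KO1. Neighbours in this order had ranges that did not overlap only for CCND1 and CDK4, CDK6 and CDKN2C, and CDKN2B and CCND2, so the order among the genes from CDK4 to CDK6 is not resolved step by step. The order was the same by the median over libraries. With the longest annotated transcript as the length in place of all exons, CDK4 and CDKN2A changed places, as did CDKN1B and CCND3.

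**Figure D1:**
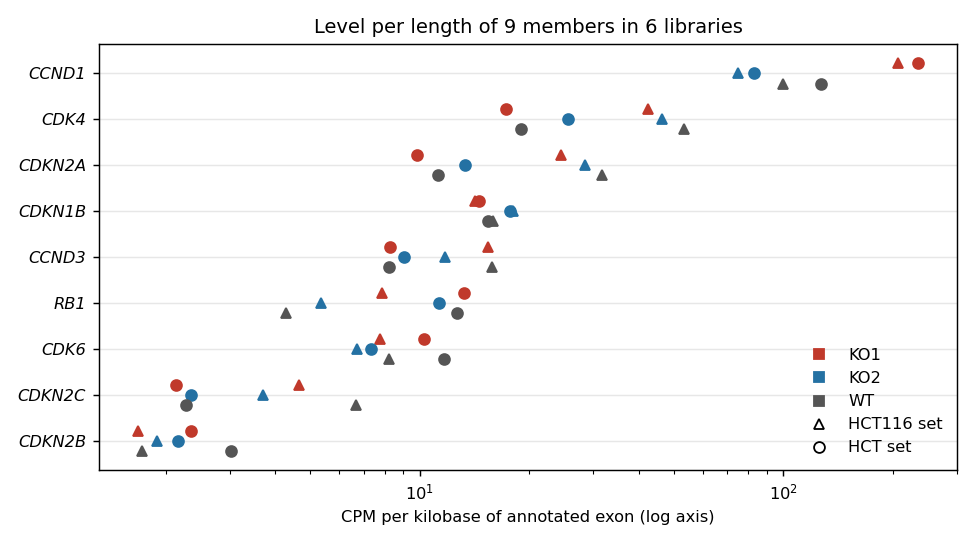
Level in CPM per kilobase of annotated exon (log axis) of 9 of the 10 genes, each point 1 library, coloured by group and shaped by set; CCND2 is left out because it had 0 reads in 4 libraries. CCND1 lies above all the others. CDK4, CDKN2A, CCND3 and CDKN2C show triangles to the right of circles, while RB1 and CDKN2B show the reverse.

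CCND1, which encodes cyclin D1, lies at chr11:69641087-69654474 on the plus strand (GENCODE release 29, GRCh38). It had 995 and 1135 CPM in KO1, 361 and 401 CPM in KO2, and 482 and 612 CPM in WT, in the HCT116 and HCT libraries. Both KO1 libraries were above every other library and both KO2 libraries below every other library, and the groups did not overlap. The share of all tested genes whose groups separate in full was not counted. In these bulk samples, fewer cells expressing a gene and less RNA per cell cannot be told apart.

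CCND1 was 1.95-fold higher in KO1 than in WT, with a log2 fold change of 0.97 ± 0.13 (SE, 2 libraries in each group, edgeR adjusted p = 0.00344). Within the sets the log2 ratio was 1.04 in the HCT116 set and 0.89 in the HCT set. It was 1.43-fold lower in KO2 than in WT, at −0.51 ± 0.13 (edgeR adjusted p = 0.0446), with ratios of −0.42 and −0.61 in the HCT116 and HCT sets. Between the guides, KO2 stood 2.79-fold below KO1, at −1.48 ± 0.13 (edgeR adjusted p = 5.13e-05), with ratios of −1.46 and −1.50. The 3 comparisons share libraries, so these are not separate pieces of evidence. The gap between KO2 and KO1 was past the threshold with any 1 library left out. The difference of KO1 from WT was not past it without the HCT116 library of KO1 (log2 fold change 0.93, edgeR adjusted p = 0.0601). That of KO2 from WT was not past it without the HCT library of KO1 (−0.51, adjusted p = 0.11), the HCT116 library of KO1 (−0.53, 0.0912), WT's HCT library (−0.43, 0.355) or WT's HCT116 library (−0.59, 0.154). Without the set in the model, edgeR adjusted p was 1 for KO1 against WT, 1 for KO2 against WT and 0.399 for KO2 against KO1. The authors' deposited table, whose model is not described in the sources used here, lists CCND1 at a log2 fold change of 0.95 (adjusted p = 1) in KO1 and −0.56 (adjusted p = 1) in KO2 against WT.

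CCND1 was the single gene of the 9 past the threshold in each of these comparisons. Among all tested genes, the share past it was 1.03% for KO1 over WT, 4.61% for KO2 over WT and 9.62% for KO2 over KO1 (edgeR, adjusted p of 0.05, set as a term). Since the genes were chosen with these comparisons known, nothing is read from the counts. Without the set term edgeR called 0 genes in each, with 173, 309 and 513 genes at an unadjusted p under 0.05, while DESeq2 with the set called 205, 613 and 1127.

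LTO1, which lies on the opposite strand, shares 497 exon bases with CCND1. It had 158 to 348 reads per library against at least 5231 for CCND1. The sources used here do not state if strand was used in counting, so reads in the shared stretch cannot be assigned with certainty.

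**Figure D2:**
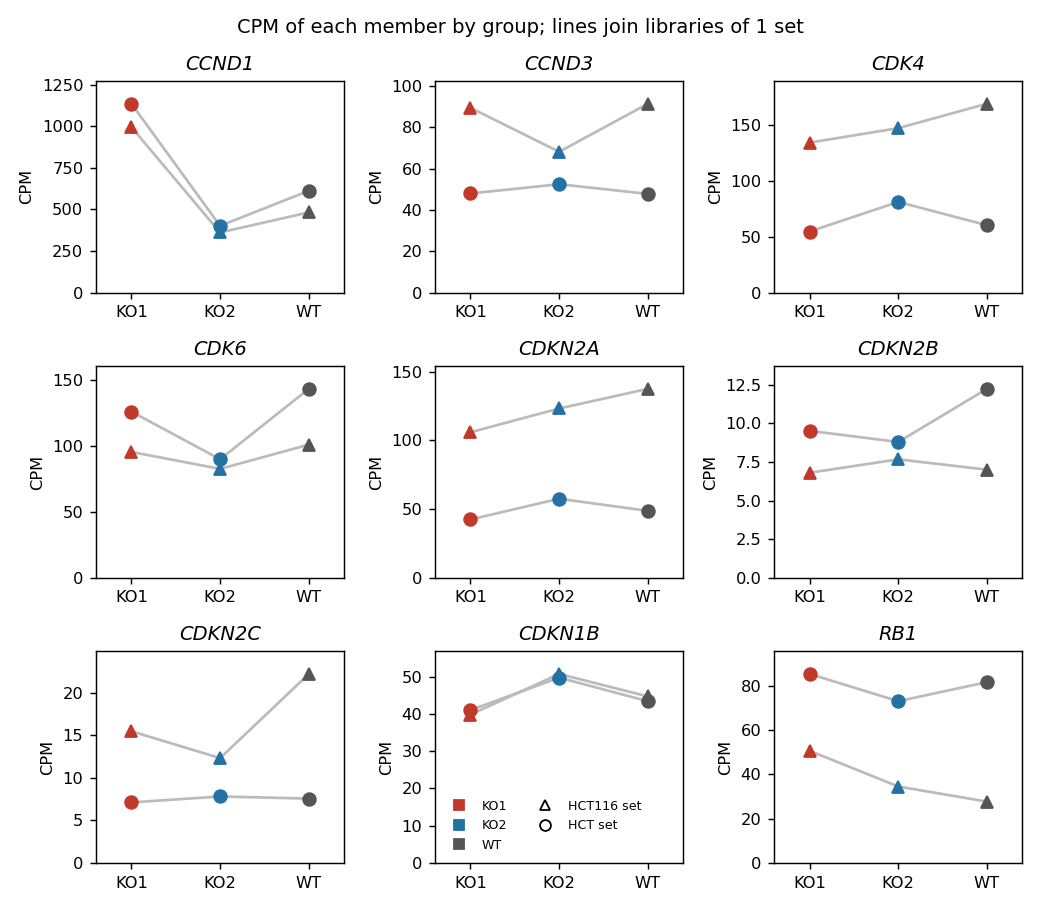
CPM of 9 genes by group, each point 1 library and each line joining the libraries of 1 set; the vertical axes start at 0 and differ between panels. CCND1 is highest in KO1 and lowest in KO2 in both sets, the lines of CDKN1B lie on each other, and those of CDK4, CDKN2A and RB1 lie apart.

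Of the other D cyclins, CCND3 did not share the pattern of CCND1, and CCND2 had too few reads to show one. CCND3, which encodes cyclin D3, the D cyclin best known from lymphoid cells, had 89.4 and 48.0 CPM in KO1, 68.1 and 52.4 CPM in KO2, and 91.4 and 47.8 CPM in WT (HCT116 and HCT libraries). In KO1 both libraries lay next to their WT counterparts, and the log2 fold change was −0.01 ± 0.15 (SE). In KO2 it was −0.14 ± 0.15, with −0.42 in the HCT116 set and 0.13 in the HCT set, so the sets went opposite ways. It passed the threshold in KO2 when KO2's HCT library was left out (−0.41, edgeR adjusted p = 0.0384), where the lone KO2 library is assumed to vary like the others. CCND2, which encodes cyclin D2, had at most 0.276 CPM, near the 0.157 to 0.236 CPM that 3 counts stand for, and no fold was formed. Per length, CCND1 made up 93.0% and 96.6% of the summed D cyclin CPM per kilobase in KO1, 86.4% and 90.2% in KO2, and 86.4% and 93.9% in WT (HCT116 and HCT libraries).

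Of the kinases, neither passed the threshold with either guide. CDK6 had its lowest values in KO2, and CDK4 had no shared direction in KO2. CDK6 had 95.4 and 126 CPM in KO1, 82.5 and 89.8 CPM in KO2, and 101 and 143 CPM in WT (HCT116 and HCT libraries). Both KO2 libraries lay below all 4 others, while KO1 and WT overlapped. The log2 fold change in KO2 against WT was −0.48 ± 0.13 (SE), with −0.29 in the HCT116 set and −0.67 in the HCT set. At an edgeR adjusted p of 0.0636 it missed the threshold. It passed with DESeq2 (adjusted p = 0.0337), with DESeq2's size factors in edgeR (0.0415) and with no filter on low counts (0.0305). It did not pass without the set in the model. With 1 library left out the log2 fold change ranged from −0.65 (HCT116 library of KO2) to −0.32 (HCT library of KO2). In KO1 the log2 fold change of CDK6 was −0.14 ± 0.13.

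CDK4 had 134 and 54.6 CPM in KO1, 147 and 81.1 CPM in KO2, and 169 and 60.3 CPM in WT (HCT116 and HCT libraries). The libraries of 1 set lay closer together than those of 1 group. In KO2 the log2 ratio to WT was −0.20 in the HCT116 set and 0.43 in the HCT set, and the fitted value was 0.11 ± 0.15 (SE). Without the HCT116 library of KO2 it stood at 0.38 (edgeR adjusted p = 0.0456). In KO1 the fitted log2 fold change was −0.25 ± 0.15. TSPAN31, on the opposite strand, shares 1369 exon bases with CDK4 and had 127 to 301 reads per library, against at least 815 for CDK4. In CPM per kilobase, CDK4 exceeded CDK6 by 5.44 and 1.68 times in KO1, 6.90 and 3.49 times in KO2, and 6.48 and 1.63 times in WT (HCT116 and HCT libraries). Such ratios between genes scale with the lengths used.

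The summed CPM per kilobase of the D cyclins over that of the kinases was 4.42 and 8.85 in KO1, 1.63 and 2.80 in KO2, and 1.88 and 4.4 in WT (HCT116 and HCT libraries). In each set it was highest in KO1 and lowest in KO2. This ratio of transcripts carries the selected difference in CCND1 and says nothing of the proteins.

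INK4 transcripts did not pass the threshold with either guide. CDKN2A encodes p16, and a separate first exon gives the p53 activator ARF from the same gene, so a gene-level count merges both. HCT116 is known for a frameshift in the p16 reading frame and promoter methylation on the other allele. CDKN2A had 106 and 42.4 CPM in KO1, 123 and 57.5 CPM in KO2, and 137 and 48.7 CPM in WT (HCT116 and HCT libraries). In KO1 against WT the log2 fold change stood at −0.29 ± 0.13 (SE), with −0.38 in the HCT116 set and −0.20 in the HCT set. In KO2 it was 0.04 ± 0.13, with −0.16 in the HCT116 set and 0.24 in the HCT set. The antisense transcript CDKN2B-AS1 shares 341 exon bases with CDKN2A and has no row in the tables used here.

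CDKN2B encodes p15, an inhibitor known to be induced by TGF-beta. It had 6.80 and 9.52 CPM in KO1, 7.67 and 8.79 CPM in KO2, and 7.0 and 12.2 CPM in WT (HCT116 and HCT libraries), from 88 to 188 reads. The highest value was the HCT library of WT, and all groups overlapped. Log2 fold changes were −0.22 ± 0.24 (SE) in KO1 and −0.20 ± 0.23 in KO2. In the HCT116 and HCT sets the log2 ratios were −0.04 and −0.36 in KO1, and 0.13 and −0.47 in KO2.

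CDKN2C encodes p18. It had 15.5 and 7.10 CPM in KO1, 12.3 and 7.80 CPM in KO2, and 22.2 and 7.55 CPM in WT (HCT116 and HCT libraries), from 106 to 282 reads. The HCT libraries lay together, and the HCT116 library of WT stood above the rest. The log2 fold change in KO2 was −0.43 ± 0.24 (SE), with −0.84 in the HCT116 set and 0.05 in the HCT set. Without the HCT library of KO2 it was −0.76 (edgeR adjusted p = 0.0159). In KO1 it was −0.33 ± 0.24.

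CDKN1B, which encodes p27, was close between the sets and ordered by group. It had 39.8 and 41.0 CPM in KO1, 50.7 and 49.7 CPM in KO2, and 44.7 and 43.4 CPM in WT (HCT116 and HCT libraries). The KO2 libraries lay above the WT libraries and the KO1 libraries below them, with no overlap. How many of all tested genes separate by group in this way was not counted. The log2 fold changes were small, at −0.12 ± 0.14 (SE) in KO1, 0.19 ± 0.13 in KO2 and 0.31 ± 0.13 in KO2 against KO1, and none of them passed the threshold (edgeR adjusted p = 0.888, 0.488 and 0.174).

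RB1, the substrate of the kinases, had 50.6 and 85.3 CPM in KO1, 34.5 and 73.0 CPM in KO2, and 27.7 and 81.6 CPM in WT (HCT116 and HCT libraries). KO1 was highest in both sets. The log2 fold change in KO1 against WT was 0.44 ± 0.18 (SE, edgeR adjusted p = 0.45), made of 0.87 in the HCT116 set and 0.06 in the HCT set. Leaving out the HCT or HCT116 library of KO2, which enter this comparison through the shared spread and scaling, gave 0.43 or 0.41. RB1 passed the threshold in both of these fits, but their spread comes from KO1 and WT alone, so no call is read from them. Without the HCT or HCT116 library of KO1 the log2 fold change was 0.74 or 0.16. Without the HCT or HCT116 library of WT it was 0.79 or 0.15. In KO2 against WT it was 0.05 ± 0.18, with 0.32 in the HCT116 set and −0.16 in the HCT set.

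**Figure D3:**
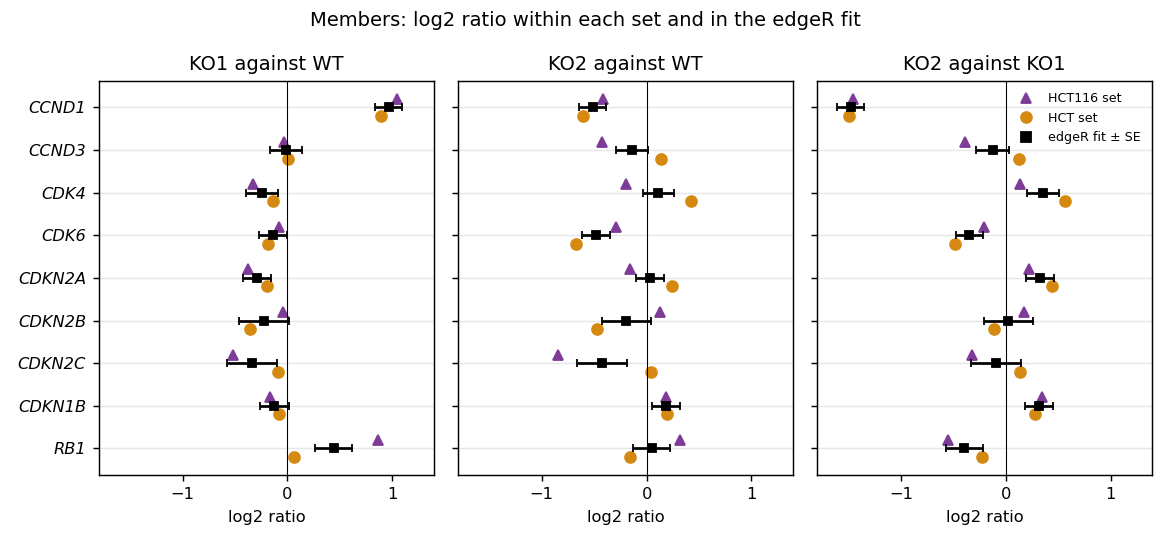
Log2 ratio of 9 genes for KO1 against WT, KO2 against WT and KO2 against KO1, with triangles for the HCT116 set, circles for the HCT set and squares with bars for the edgeR fit and its SE. Both sets of CCND1 lie at 0.89 to 1.04 in KO1 and at −0.61 to −0.42 in KO2. In KO2 against WT the sets of CCND3, CDK4, CDKN2A, CDKN2B, CDKN2C and RB1 lie on opposite sides of 0. How often this occurs among all tested genes was not counted.

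The HCT116 set was then compared with the HCT set, a comparison that the choice of genes did not use. Of the 9 genes, 7 differed: 4 were higher and 3 lower in the HCT116 set (edgeR adjusted p of 0.05). The shares among all tested genes were 31.8% higher and 32.1% lower, 63.9% in all, so 7 of 9 is close to the background and is not a result about these genes. The sets differ in unknown ways, and what made them differ was not tested.

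CDKN2A was higher in the HCT116 set by 2.47-fold, with a log2 fold change of 1.30 ± 0.11 (SE, 3 libraries in each set, edgeR adjusted p = 6.32e-06). Its log2 ratio between the sets was 1.32 in KO1, 1.10 in KO2 and 1.50 in WT. CDK4 was higher by 2.32-fold (1.21 ± 0.13, edgeR adjusted p = 1.45e-05), CDKN2C by 2.16-fold (1.11 ± 0.20, 0.000449) and CCND3 by 1.67-fold (0.74 ± 0.13, 0.000389). For each of these 3 genes KO2 had the smallest ratio between the sets and WT the largest. The values were 0.86 and 1.48 for CDK4, 0.65 and 1.54 for CDKN2C, and 0.38 and 0.93 for CCND3. The same order held for CDKN2A and, in size, for CCND1, CDK6 and CDKN2B, but not for RB1 or CDKN1B. How many of all tested genes have this order was not counted, so it is not read as a trait of these genes. Whether the gap depends on the group could not be tested, as each group has 1 library per set.

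RB1 was lower in the HCT116 set by 2.18-fold (−1.12 ± 0.14, SE, edgeR adjusted p = 5.27e-05), with log2 ratios of −0.75 in KO1, −1.08 in KO2 and −1.56 in WT. CDKN2B was lower by 1.41-fold (−0.49 ± 0.19, adjusted p = 0.0419) and CDK6 by 1.27-fold (−0.34 ± 0.11, adjusted p = 0.0148). Neither of these calls was firm. For CDKN2B the adjusted p was 0.0916 with DESeq2, and in edgeR 0.133 without the HCT library of KO1, 0.126 without the HCT116 library of KO1, 0.317 without the HCT library of WT and 0.31 without the HCT116 library of WT. For CDK6 the edgeR adjusted p was 0.122, 0.164, 0.136 and 0.141 without those same 4 libraries. CCND1 was not past the threshold between the sets (−0.23 ± 0.10, adjusted p = 0.073), though it was without the HCT library of KO2 (−0.27, 0.0139). CDKN1B had a log2 fold change of 0.01 ± 0.11 (adjusted p = 0.945).

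**Figure D4:**
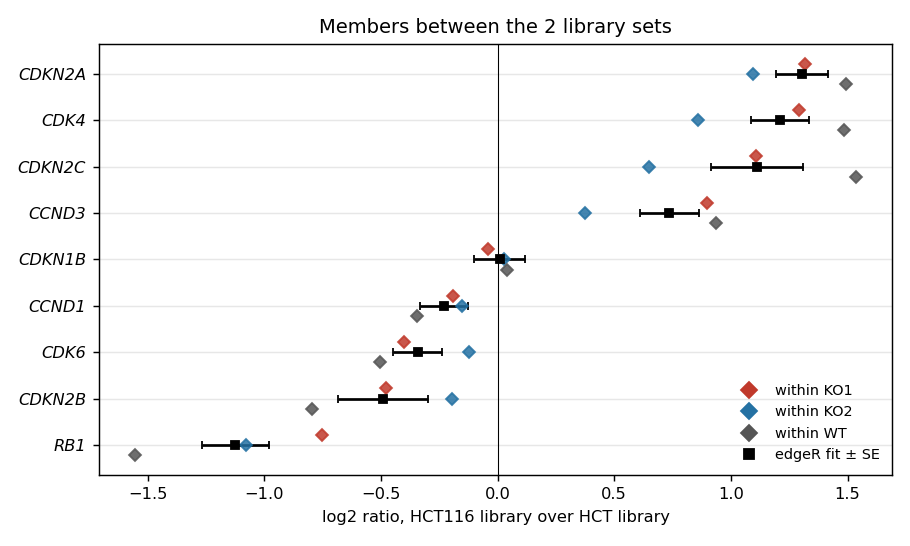
Log2 ratio of the HCT116 library over the HCT library for 9 genes, with a diamond for each group and a square with bars for the edgeR fit and its SE. CDKN2A, CDK4, CDKN2C and CCND3 lie to the right of 0 in every group, and CCND1, CDK6, CDKN2B and RB1 to the left.

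CDKN2A and CDKN2B neighbour each other on the minus strand of chromosome 9, at chr9:21967753-21995301 and chr9:22002903-22009363 (GENCODE release 29, GRCh38), and differed between the sets in opposite directions. Promoter sequence is shown because both genes are textbook targets of CpG methylation, which was not measured here. The table of RefSeq promoters (GRCh38.p14) matched 8 of the 10 genes; CCND1 and CCND2 were not matched. Capitals mark CpG. The stretch before the first CDKN2A start, that of the ARF transcript, spans chr9:21995325-21995574. That before CDKN2B spans chr9:22009364-22009555, with the 58 bases next to the start left out because they are annotated as exon in GENCODE. The stretch before the other CDKN2A start is not printed, because annotated exon leaves too little of it.
CDKN2A: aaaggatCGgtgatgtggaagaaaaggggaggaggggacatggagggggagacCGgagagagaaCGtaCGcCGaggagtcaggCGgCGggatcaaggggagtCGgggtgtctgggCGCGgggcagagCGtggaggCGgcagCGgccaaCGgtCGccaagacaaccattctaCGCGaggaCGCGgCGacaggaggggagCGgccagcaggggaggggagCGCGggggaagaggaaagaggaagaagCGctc
CDKN2B: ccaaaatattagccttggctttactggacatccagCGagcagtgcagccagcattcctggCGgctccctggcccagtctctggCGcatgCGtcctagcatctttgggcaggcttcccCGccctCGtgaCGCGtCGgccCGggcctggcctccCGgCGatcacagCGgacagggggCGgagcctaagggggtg

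Over the 250 bases before the start, CDKN2A held 24 CpG and CDKN2B 18, against a median of 11 over 34788 RefSeq promoters. As many as in CDKN2A were found in 23.7% of promoters and as many as in CDKN2B in 36.8%. The GC box GGGCGG, a site known for binding Sp1, was found on either strand 2 times before CDKN2B and 0 times before that CDKN2A start, and 42.6% of all promoters of this length hold it. The table's other CDKN2A promoter, at chr9:21974808-21975107 with the bases after its start, held 20 CpG before that start, with as many in 32.5% of promoters, and 1 GC box. The letters TTTNNCGC, part of the E2F consensus, were in none of these, against 5.89% of all promoters.

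Beyond the 10 genes, the lists that follow were drawn up with earlier results of these data known. S-phase genes driven by E2F, the step after RB1, are first. Of 29 tested, 0 rose and 0 fell in KO1 (median log2 fold change −0.06, against 0.00 over all tested genes, of which 1.03% were called). In KO2, 0 rose and 1 fell (median −0.04, against 0.00 over all tested genes, of which 4.61% were called). The 1 was CDT1, a licensing factor of replication origins, at 300 and 110 CPM in KO1, 212 and 80.7 CPM in KO2, and 394 and 101 CPM in WT (HCT116 and HCT libraries). It fell by 0.62 ± 0.15 in KO2 on the log2 scale (SE, edgeR adjusted p = 0.0388), a call not made without the HCT library of KO1 (−0.61, 0.0615) or the HCT116 library of WT (−0.33, 0.511). Between the sets, 25 of the 29 were higher in HCT116 and 0 lower, with a median of 0.79 against −0.02 over all tested genes, of which 31.8% were higher and 32.1% lower. The count was 22 to 27 with 1 library left out. MCM5 (1.62) and CDT1 (1.60) had the largest log2 differences, and E2F1, the best known activator of the family, was 1.38 ± 0.15 higher (edgeR adjusted p = 1.6e-05). RBL2, the pocket protein p130 that acts in resting cells, was −1.58 ± 0.14 (2.99-fold lower, adjusted p = 8.05e-06). E2F1 and RBL2 were the highest and lowest of 11 pocket protein, E2F and DP genes, of which 4 were higher and 4 lower.

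Of 5 genes of the next step (CCNE1, CCNE2, CCNA2, CDK2 and CDC25A), 0 rose and 0 fell with either guide, and 3 were higher and 0 lower in the HCT116 set, where 31.8% of all tested genes were higher. Of 11 pocket protein, E2F and DP genes, likewise 0 rose and 0 fell with either guide, while 4 were higher and 4 lower in the HCT116 set, close to the 63.9% of all tested genes that differed. Of 11 genes for turnover and assembly of cyclin D and p27, 0 rose and 0 fell with either guide. Of the 5 proliferation markers MKI67, TOP2A, BUB1, CCNB1 and PLK1, 0 rose and 0 fell with either guide. Between the sets 2 of them were higher and 2 lower in HCT116, with a median log2 fold change of 0.09. Among all tested genes 1.03% were called in KO1 and 4.61% in KO2. Nothing is therefore read from counts of 0 in lists of this size. Of the CDK-activating kinase, CCNH and MNAT1 did not pass the threshold in any comparison, and CDK7 was listed at 0 to 0.138 CPM and not tested.

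CDKN1A, which encodes p21, was the single called gene among 3 other CDK inhibitors in KO1, where 1.03% of all tested genes were called. It had 687 and 517 CPM in KO1, 428 and 255 CPM in KO2, and 309 and 318 CPM in WT (HCT116 and HCT libraries). Both KO1 libraries were above all others. It rose by 0.92 ± 0.17 (log2, SE, edgeR adjusted p = 0.0269), and the call was not made without the HCT library of KO1 (0.94, 0.138), the HCT116 library of KO1 (0.88, 0.079) or the HCT116 library of WT (0.63, 0.315). In KO2 it was 0.07 ± 0.17.

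Among 14 transcription factors known to act on CCND1, 0 rose and 0 fell in KO1, and 2 rose and 1 fell in KO2, where 1.03% of all tested genes were called in KO1 and 4.61% in KO2. JUN, a subunit of AP-1, had 24.8 and 44.6 CPM in KO1, 58.3 and 63.3 CPM in KO2, and 27.5 and 45.5 CPM in WT (HCT116 and HCT libraries). It rose in KO2 by 0.78 ± 0.18 (log2, SE, edgeR adjusted p = 0.0313), a call not made without the HCT116 library of WT (0.66, 0.164). With KO2's HCT116 library left out, its log2 fold change was 0.45 (edgeR adjusted p = 0.0294). ETS2, a factor of the ETS family, rose by 0.62 ± 0.12 (adjusted p = 0.0141), a call not made when either WT library was left out, HCT (0.59, 0.103) or HCT116 (0.65, 0.0699). FOSL1, another AP-1 subunit, fell by 0.84 ± 0.13 (adjusted p = 0.00374), to 123 and 54.1 CPM in KO2 against 236 and 89.7 CPM in WT, and this call was made with each library left out. Between the sets 2 of the 14 were higher and 9 lower in HCT116, against 31.8% higher and 32.1% lower among all tested genes.

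Genes next to CCND1 on 11q13 were set beside it. Of 11 tested, 1 rose and 0 fell in KO1 (median log2 fold change 0.31, against 0.00 over all tested genes, of which 1.03% were called). In KO2, 0 rose and 1 fell (median 0.14, against 0.00 over all tested genes, of which 4.61% were called). MYEOV, centromeric of CCND1, had 237 and 191 CPM in KO1, 113 and 60.03 CPM in KO2, and 142 and 94.6 CPM in WT (HCT116 and HCT libraries). It rose in KO1 by 0.89 ± 0.15 (log2, SE, edgeR adjusted p = 0.0158), a call not made without the HCT library of KO1 (0.66, 0.315). FGF19, a fibroblast growth factor gene telomeric of CCND1, had 134 and 146 CPM in KO1, 51.3 and 79.1 CPM in KO2, and 91.0 and 101 CPM in WT. It fell in KO2 by 0.58 ± 0.15 (adjusted p = 0.0465), a call not made without the HCT library of KO1 (−0.59, 0.0691), the HCT116 library of KO2 (−0.35, 0.0681) or the HCT116 library of WT (−0.47, 0.283). Next to the INK4 genes on 9p21, 0 of 3 genes tested were called in KO1 and IFNE, an interferon gene, rose in KO2, from few reads, to 3.39 and 4.14 CPM against 1.26 and 0.456 CPM in WT. Its log2 fold change was 2.17 ± 0.53 (edgeR adjusted p = 0.041), a call not made by DESeq2 (2.12, 0.0617), without the HCT library of KO2 (1.84, 0.0518) or without the HCT library of WT (1.30, 0.395). With WT's HCT116 library left out, it was 3.27 (edgeR adjusted p = 0.0082).

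**Figure D5:**
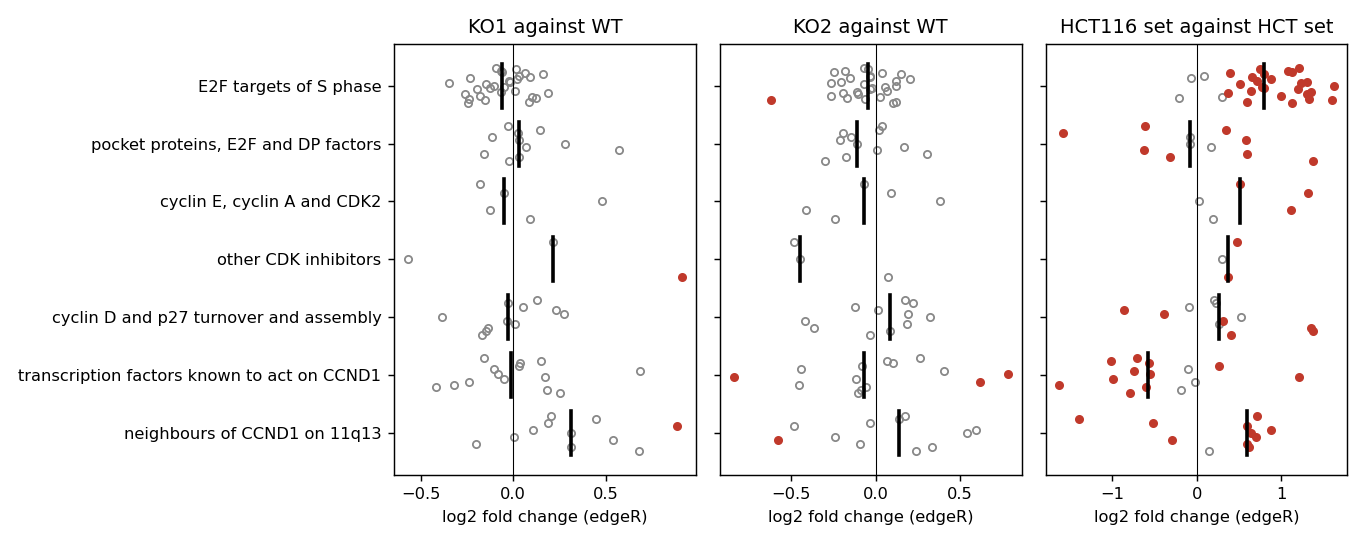
Log2 fold change (edgeR) of the tested genes of 7 lists around the members for KO1 against WT, KO2 against WT and the HCT116 set against the HCT set; filled red points are past an adjusted p of 0.05, open points are not, and black bars are list medians. The S-phase targets lie near 0 with either guide and at a median of 0.79 between the sets; the horizontal scale of the last panel differs.

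The 5 genes whose pattern over the 6 libraries was closest to that of CCND1 were SERINC2, TNS4, TMEM139, XRCC4 and LFNG, of 11397 candidates, after each set was centred on its own mean. Their root mean square difference from CCND1 was 0.10 to 0.12 log2 units and Pearson's r was 0.986 to 0.993, a description over 6 libraries in which 3 group levels decide the value. TNS4, which encodes a tensin of focal adhesions, had 245 and 256 CPM in KO1, 74.2 and 106 CPM in KO2, and 113 and 148 CPM in WT (HCT116 and HCT libraries). XRCC4, a factor of DNA end joining, had 98.2 and 99.4 CPM in KO1, 27.6 and 36.1 CPM in KO2, and 43.6 and 57.6 CPM in WT. Among the other 8 genes tested, r with CCND1 lay between −0.95 for CDKN1B and 0.71 for RB1.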

How the data were processed

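RNA-seq of 6 libraries was analysed from read counts per gene symbol, which the authors deposited without normalization, per the file headers. The log2 fold change, p-value and adjusted p-value of the authors' own comparisons are quoted where the authors' deposited table is named. The submitters' processing notes list STAR, HTSeq 0.6.0, DESeq2 and hg18, with no roles. The other 40 per-sample columns, among them the authors' normalized values, were not used, and levels between genes are CPM per kilobase of merged GENCODE exons. The WT counts are the same in both tables, which were joined on symbol.

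Tests used edgeR 4.0.16 (R 4.3.3): TMM, filterByExpr (minimum count 10), then glmQLFit with glmQLFTest over the 6 libraries, set and group as terms (2 residual degrees of freedom), Benjamini-Hochberg over 12678 genes at 0.05. The standard error is the absolute log2 fold change over the square root of F. Log2 CPM uses a prior count of 2. Column names carry no replicate number, so the set stands as the block. Libraries of a set deviate together: their differences from the group mean correlated at 0.867 for KO1 and WT, 0.815 for KO2 and WT and 0.783 for KO2 and KO1. Libraries of a group differed beyond counting noise (chi-square per degree of freedom 91.5 to 142). The fitting code was tested on simulated counts.

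Named genes are the 10 members, up to 3 called genes per direction from each other list in each comparison with WT, and the 5 closest to CCND1. The other genes named (CCNE1 to CDC25A, the CDK-activating kinase, the proliferation and cell type markers, overlapping genes, MCM5, E2F1 and RBL2) fall outside that rule and were named after their values were seen. Members and lists were chosen with earlier results of these data known. Alternatives were DESeq2 1.42.0, its size factors, no filter, no set, and each library left out. Intervals between libraries measure this spread only, and a floor of 3 counts covers counting error only. Positions come from GENCODE release 29 (GRCh38), promoters from RefSeq (GRCh38.p14), neither the build in the notes.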

Additional observations from a re-analysis of the deposited data

How the results depend on the processing

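The set term decided the counts. With no replicate block, where libraries are not paired by set, edgeR called 0 genes and 0 of the 9 members in KO1 against WT, KO2 against WT and KO2 against KO1. The main counts were 130, 585 and 1220 genes and 1 member each. In KO1 against WT, DESeq2 called 205 genes and edgeR with no filter 316; in KO2 against WT, edgeR with no filter called 949. Members called in KO2 against WT were 2 with DESeq2, with its size factors and with no filter, the second being CDK6.

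With 1 library left out, the genes called were 69 to 901 in KO1 against WT, 317 to 2170 in KO2 against WT and 391 to 3202 in KO2 against KO1. Members called were 0 to 2, 0 to 3 and 1 to 5. The lone library of a group is then taken to vary as the rest do. Between the sets the number of members called stayed within 1.5 times 7. The log2 fold change of CDKN1B between the sets ranged from −0.00616 to 0.0599 with 1 library left out and turned negative without either WT library (the other value was −0.00278). With the longest transcript as length, an alternative chosen after seeing the data, 4 members changed place in the order of levels, by construction of the lengths; the deposited FPKM, first planned as the level, were not used and that comparison was not run. Members with log2 ratios of opposite sign in the sets, both beyond 0.25 (or 0.5), numbered 0. With no such minimum, CCND3, CDK4, CDKN2A, CDKN2B, CDKN2C and RB1 had opposite signs in KO2 against WT. The share of all tested genes with opposite signs was not counted, so nothing is read from this about the members. The median absolute gap between the sets in KO2 against WT was 0.48 for the tested members and 0.29 for all tested genes. In KO1 against WT it was 0.18 and 0.20. Counts were few for CCND2, IFNE, CDK7, VIL1, CDX1 and LGR5, which limits what can be said of them. What kept these counts low was not tested.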
